A study of Mus musculus with 2 samples.

Results

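Of the 1187 miRNA precursors listed for ischemic mouse hindlimb muscle, 10 are described here, chosen by name. A precursor is the hairpin RNA from which a mature miRNA is cut. The 10 are the miR-106b-25 cluster (miR-106b, miR-93, miR-25), the miR-106a-363 cluster (miR-106a, miR-18b, miR-20b, miR-19b-2, miR-92a-2, miR-363) and the single gene miR-92b, and all 10 had counts in at least 1 library. Small RNA was sequenced from muscle of 2 groups on day 1 after the femoral artery had been removed. The hypercholesterolemic library (HC) came from ApoE-/- mice, which the series' design text places on a high fat diet. The control normocholesterolemic library (NC) came from C57Bl/6 mice of control genotype, for which the labels name no diet. Genotype and phenotype therefore differ together between the groups, the labels do not say how many animals each library holds, and both groups had ischemic muscle, with no unoperated muscle used here. Each group held 1 library, so the spread between animals is unknown, no test was run, and each interval printed is a 95% interval of counting error only.

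The miR-106b-25 and miR-106a-363 clusters are paralogs of the miR-17-92 cluster, which is known for promoting proliferation and survival of cells. A miRNA finds its target mRNAs mainly through its seed, bases 2 to 8 from the 5′ end, so miRNAs that share a seed share many predicted targets. Known targets of the miR-17 seed family include the cell cycle inhibitor Cdkn1a and the proapoptotic Bcl2l11. In ischemic limbs, miR-92a is known for restraining vessel growth and miR-93 for promoting the recovery of perfusion. In the heart, miR-25 is known for repressing the calcium pump Serca2a. miR-92b is best known from neural progenitors.

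The mature sequences are shown because the seed places each precursor in a family, and because near-identical sequences limit how well the reads can be told apart. All 10 hairpins matched RefSeq entries of GRCm38.p6, the assembly of mm10. The arm shown for each is the one that carries the family seed, written 5′ to 3′ with bases 2 to 8 in capitals. The first group has the miR-17 seed, and miR-17 and miR-20a of the miR-17-92 cluster are added for comparison.
miR-106b-5p: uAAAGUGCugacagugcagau
miR-93-5p: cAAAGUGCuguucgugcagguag
miR-106a-5p: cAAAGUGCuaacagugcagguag
miR-20b-5p: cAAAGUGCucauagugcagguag
miR-17-5p: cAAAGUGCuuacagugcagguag
miR-20a-5p: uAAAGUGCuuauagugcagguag
The second group has the miR-25/92 seed, with miR-32 as a relative outside the clusters.
miR-25-3p: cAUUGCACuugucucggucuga
miR-92a-3p: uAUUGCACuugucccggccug
miR-92b-3p: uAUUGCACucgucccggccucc
miR-363-3p: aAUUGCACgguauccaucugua
miR-32-5p: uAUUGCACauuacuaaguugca
The miR-18 and miR-19 seeds each have 1 sequence among the 10 precursors, and miR-18a is shown beside miR-18b.
miR-18b-5p: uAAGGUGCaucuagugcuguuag
miR-18a-5p: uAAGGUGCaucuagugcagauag
miR-19b-3p: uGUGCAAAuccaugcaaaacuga

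Positions are counted from 1 at the 5′ end of the first-named mature miRNA, whose base comes first. miR-106a-5p differs from miR-17-5p by the single substitution A10U. miR-20b-5p differs from miR-20a-5p by C1U and C10U, and miR-18b-5p from miR-18a-5p by U18A and U20A. Over the first 21 bases, miR-92b-3p differs from miR-92a-3p by C10U and C21G. Over 22 bases it differs from miR-25-3p by 6 substitutions, with 16 bases the same. miR-363-3p is the most distant of the miR-25/92 family shown, and shares only 10 of 21 bases with miR-92a-3p.

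The miR-106b-25 cluster spans 498 bases of chromosome 5 (138165321 to 138165818, minus strand, mm10). Its hairpins lie in intron 13 of the main Mcm7 transcript in GENCODE M21, on the same strand. Mcm7 encodes a subunit of the helicase that unwinds DNA in replication. The hairpin of miR-106b (mmu-mir-106b) occupies 138165737 to 138165818, that of miR-93 (mmu-mir-93) occupies 138165523 to 138165610, and that of miR-25 (mmu-mir-25) occupies 138165321 to 138165404. A transcript of Mcm7 with a retained intron also holds miR-93 and miR-25 in an exon. The miR-106a-363 cluster spans 875 bases of the X chromosome (52741693 to 52742567, minus strand). Its first hairpin, mmu-mir-106a (52742503 to 52742567), overlaps the end of the noncoding gene Kis2 by 5 bases. The other hairpins lie outside other annotated genes, in the order mmu-mir-18b (52742331 to 52742413), mmu-mir-20b (52742113 to 52742192), mmu-mir-19b-2 (52741983 to 52742066), mmu-mir-92a-2 (52741838 to 52741928) and mmu-mir-363 (52741693 to 52741767). miR-92b (mmu-mir-92b) lies alone on chromosome 3 (89227116 to 89227198, minus strand), 28 bases upstream of the annotated start of Mtx1, a gene of mitochondrial outer membrane import on the same strand.

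**Figure D1:**
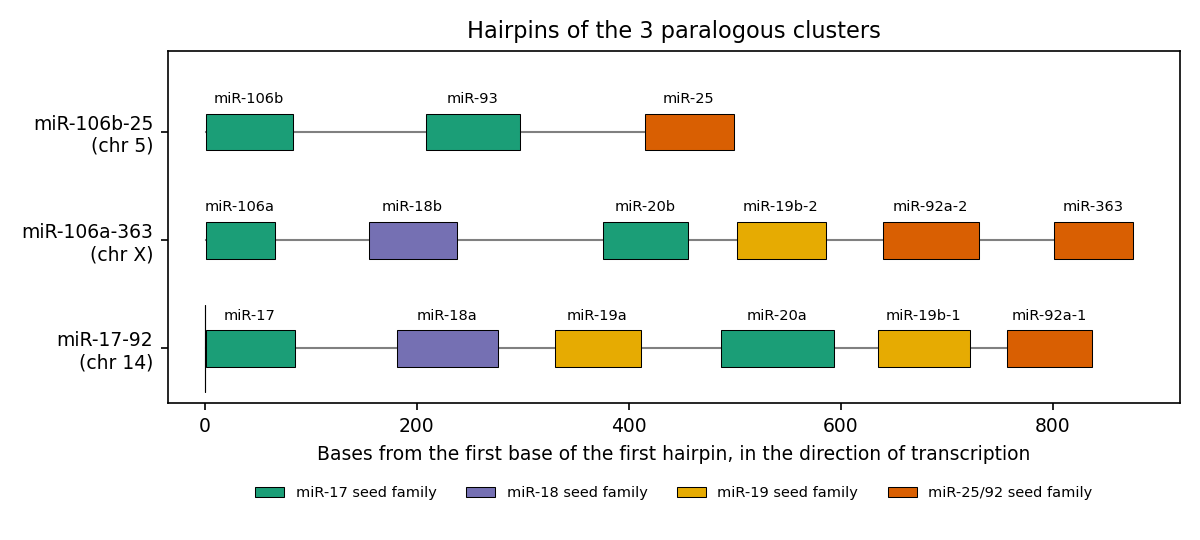
Hairpins (boxes) of the miR-106b-25, miR-106a-363 and miR-17-92 clusters, drawn to scale in bases from the first base of the first hairpin, coloured by seed family. The miR-106b-25 cluster holds 3 hairpins in 498 bases, has no miR-18 or miR-19 hairpin, and ends like the others in the miR-25/92 family.

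The HC library held 31198050 counts over all precursors and the NC library 43848576. Levels are given as CPM, counts per 1000000 of the library size scaled by the trimmed mean of M-values (TMM). A count of 0 allows up to 0.0918 CPM in HC and 0.0717 CPM in NC. The 222 precursors whose mean over the libraries reached 10 CPM were compared, and the log2 fold is that of HC over NC. Of these, 92.8% lay within 1.5-fold, and the central 90% of log2 folds ran from -0.47 to 0.47. A precursor was called when its counts differed at least 2-fold and its interval left out equality. The muscle markers miR-1a, miR-133a, miR-133b, miR-206, miR-208b and miR-499 were present in both libraries (8 of 8 precursors, summed to 136265 CPM in HC and 136069 in NC). Most of that sum is the 2 copies of miR-133a, at about equal levels. Copies of miR-133a, and likewise of miR-1a, had nearly equal counts. The sum, and the interval counts and median that follow, may therefore hold the same reads more than once. Of the 8, 4 had an interval above 0 (both miR-1a copies at 0.47, miR-208b at 0.55 and miR-499 at 0.63) and 4 below (miR-133b at -0.20, miR-206 at -0.09 and both miR-133a copies at -0.01), and the median was 0.23.

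Of the 10 precursors, 6 reached the mean of 10 CPM, and 1 of these, miR-92b, was called, as lower in HC. Over all 222 compared precursors 2.25% were called in either direction and 0.901% as lower. The counting interval lay below 0 for 5 of the 6 (miR-93, miR-25, miR-19b-2, miR-92a-2 and miR-92b), against 43.7% of all compared precursors, and above 0 for 1 (miR-106b), against 39.6%. The median log2 fold of the 6 was -0.15, where that of all compared precursors was 0.00. miR-19b-2 and miR-92a-2 are counted among the 6 although their mature sequences are not their own, and without them the median of the other 4 was -0.089. The 4 precursors below 10 CPM were miR-106a, miR-18b, miR-20b and miR-363, all from the miR-106a-363 cluster.

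**Figure D2:**
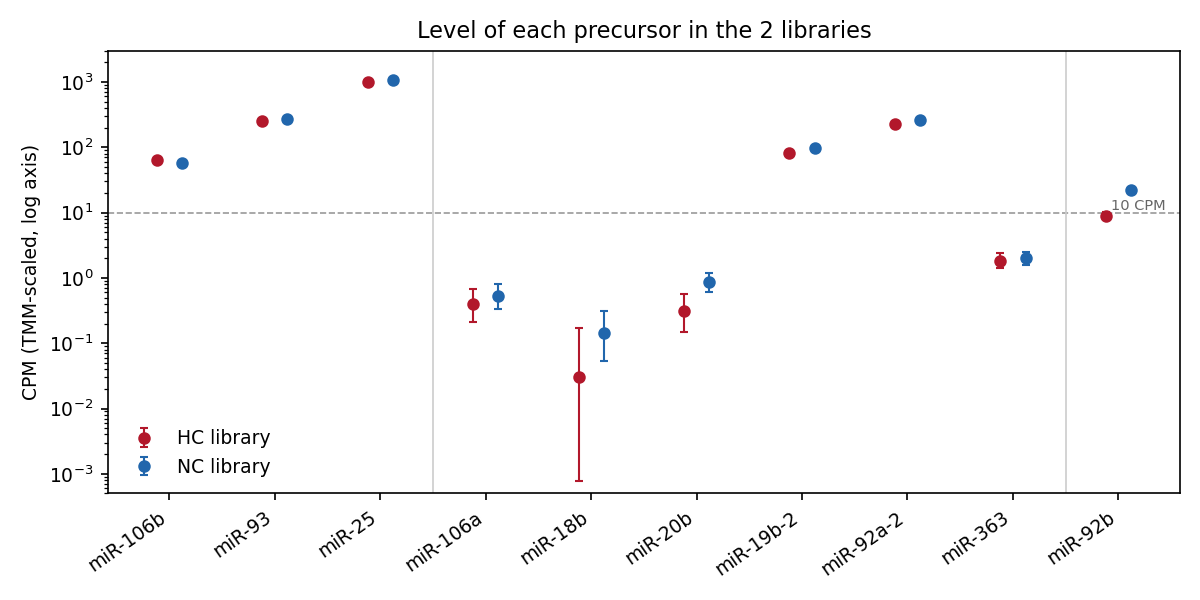
CPM (log axis) of each of the 10 precursors in the HC (red) and NC (blue) library, with exact 95% counting intervals, 1 library per group; vertical lines separate the miR-106b-25 cluster, the miR-106a-363 cluster and miR-92b. Within the X-linked cluster only miR-19b-2 and miR-92a-2 lie above 10 CPM, and miR-92b stood at 8.96 CPM in HC and 22.3 in NC.

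The miR-106b-25 cluster was detected at similar levels in the 2 libraries. miR-25, the most abundant of its hairpins, had 32941 counts (1008 CPM) in HC and 44631 counts (1066 CPM) in NC. Its log2 fold was -0.08 (-0.10 to -0.06). miR-93 had 8128 counts (248.7 CPM) in HC and 11127 (265.8 CPM) in NC, a log2 fold of -0.10 (-0.14 to -0.05). Both values lay close to equality, and both changed sign with plain library totals (0.053 for miR-25 and 0.038 for miR-93), so they have no firm direction.

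miR-106b, the third hairpin of the Mcm7 intron and like miR-93 a carrier of the miR-17 seed, had 2084 counts (63.8 CPM) in HC and 2399 (57.3 CPM) in NC. Its log2 fold was 0.15 (0.07 to 0.24). The sum of the 3 hairpins was 43153 counts in HC and 58157 in NC, a log2 fold of -0.07 (-0.09 to -0.06), which was 0.061 with plain totals. Ratios between hairpins of a library do not depend on how the libraries are scaled. miR-93 counts were 24.7% of miR-25 counts in HC and 24.9% in NC, a log2 change in the ratio of -0.01 (-0.06 to 0.03). miR-106b counts were 6.33% of miR-25 counts in HC and 5.38% in NC, a log2 change of 0.24 (0.15 to 0.32). Thus miR-93 and miR-25 kept their proportion within counting error, while miR-106b took a slightly larger part in HC. Of the cluster's counts miR-106b held 4.83% in HC (4.63 to 5.04%, exact binomial) and 4.13% in NC (3.96 to 4.29%). The size of this difference, about 1.18-fold, is within what most precursors showed between these libraries.

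The miR-106a-363 cluster was represented mainly by 2 hairpins whose mature sequence is also made from the miR-17-92 cluster. miR-19b-2 had 2633 counts (80.6 CPM) in HC and 4051 (96.8 CPM) in NC, a log2 fold of -0.26 (-0.34 to -0.19). miR-92a-2 had 7535 counts (230.5 CPM) in HC and 11115 (265.6 CPM) in NC, a log2 fold of -0.20 (-0.25 to -0.16). Together they made up 99.2% of the cluster's counts in HC (99.0 to 99.3%) and 99.0% in NC (98.9 to 99.2%). The cluster's summed log2 fold of -0.22 (-0.26 to -0.19) is therefore the fold of these 2.

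miR-19b-3p is identical in miR-19b-2 and miR-19b-1, and miR-92a-3p in miR-92a-2 and miR-92a-1. The mature RNA is shown in capitals with 4 hairpin bases on each side in small letters, because the mature RNA itself is the same in both copies while the flanks differ.
miR-19b-2: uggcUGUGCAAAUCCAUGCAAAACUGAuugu
miR-19b-1: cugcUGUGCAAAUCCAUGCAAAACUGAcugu
miR-92a-2: aaagUAUUGCACUUGUCCCGGCCUGagga
miR-92a-1: auggUAUUGCACUUGUCCCGGCCUGuuga
The copies of miR-19b share 2 bases before and 0 bases after the mature RNA. Their counts were nearly equal, 2633 against 2621 for miR-19b-1 in HC and 4051 against 4032 in NC. The copies of miR-92a share 1 base before and 0 after. Here the counts were unequal, with miR-92a-2 at 7.70% of miR-92a-1 in HC and 7.48% in NC, where miR-92a-1 had 97865 and 148639 counts. The sources used here do not say how the reads shared by copies were assigned, and the count of reads that belong to the X-linked hairpins alone cannot be read from these values.

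The hairpins of the X-linked cluster with a mature sequence of their own were near the lower end of detection. miR-363, of the miR-25/92 family, had 60 counts (1.84 CPM) in HC and 84 (2.01 CPM) in NC, a log2 fold of -0.13 (-0.63 to 0.37). miR-106a, of the miR-17 family, had 13 counts (0.398 CPM) in HC and 22 (0.526 CPM) in NC, a log2 fold of -0.40 (-1.51 to 0.65). miR-18b had 1 count in HC and 6 in NC, a log2 fold of -2.23 (-7.75 to 0.82). For these 3 a difference was not detectable at this depth.

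miR-20b, also of the miR-17 family, had 10 counts (0.306 CPM) in HC and 36 (0.860 CPM) in NC. Its log2 fold was -1.49 (-2.67 to -0.45). Relative to miR-20a, its counterpart in the miR-17-92 cluster, miR-20b counts were 1.16% in HC and 3.49% in NC, which is 3.0-fold lower in HC (1.48 to 6.08). The value lies far below the 10 CPM limit and rests on few counts. With no lower limit on the level, 2 of the 10 precursors were called, miR-20b and miR-92b, both lower in HC, while 1.99% of 755 precursors with any count were called lower. Summed, the 4 hairpins with sequences of their own had 84 counts in HC and 148 in NC, a log2 fold of -0.46 (-0.86 to -0.06). Plain totals raise every log2 fold by 0.13, which brings equality into this interval, and the sum includes the few counts of miR-20b.

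These hairpins were also small in count beside their family relatives. miR-106a counts were 1.41% of miR-17 counts in HC and 1.82% in NC, and the mature RNAs differ by 1 base. miR-18b counts were 0.352% of miR-18a counts in HC and 1.99% in NC. miR-363 counts were 0.0613% of miR-92a-1 counts in HC and 0.0565% in NC. Whether a part of the reads listed for miR-106a, miR-18b and miR-20b came from miR-17, miR-18a and miR-20a with a mismatch was not tested.

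Among the 6 compared precursors, miR-92b had the largest difference. It had 293 counts (8.96 CPM) in HC and 935 (22.3 CPM) in NC, and was 2.49-fold lower in HC (2.18 to 2.85). The log2 fold was -1.32 (-1.51 to -1.13), the lowest of the 222 compared precursors. Of the 67 compared precursors with a mean under 50 CPM, 1.49% were called lower, which is miR-92b alone. Since the mean of miR-92b was 15.7 CPM, it had passed the limit through the NC library.

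Ratios of miR-92b to 7 other named precursors give its difference free of the library scaling. They are no separate evidence, because each restates the miR-92b counts against a precursor that differed little. miR-92b counts were 0.889% of miR-25 counts in HC and 2.09% in NC, a log2 change in the ratio of -1.24 (-1.43 to -1.05). miR-92a-3p, the same from miR-92a-1 and miR-92a-2, differs least from miR-92b-3p in sequence. Against miR-92a-1 the ratio of miR-92b was 0.299% in HC and 0.629% in NC, a log2 change of -1.07 (-1.26 to -0.88). For miR-92a-2 the log2 change was -1.11 (-1.31 to -0.92). Against miR-363 the log2 change was -1.19 (-1.70 to -0.67), and against miR-32 it was -1.40 (-1.73 to -1.06). Against miR-93 and miR-106b, which have another seed, it was -1.22 (-1.41 to -1.03) and -1.47 (-1.68 to -1.26). The ratios in HC run from 2.10-fold lower, to miR-92a-1, to 2.77-fold lower, to miR-106b.

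**Figure D3:**
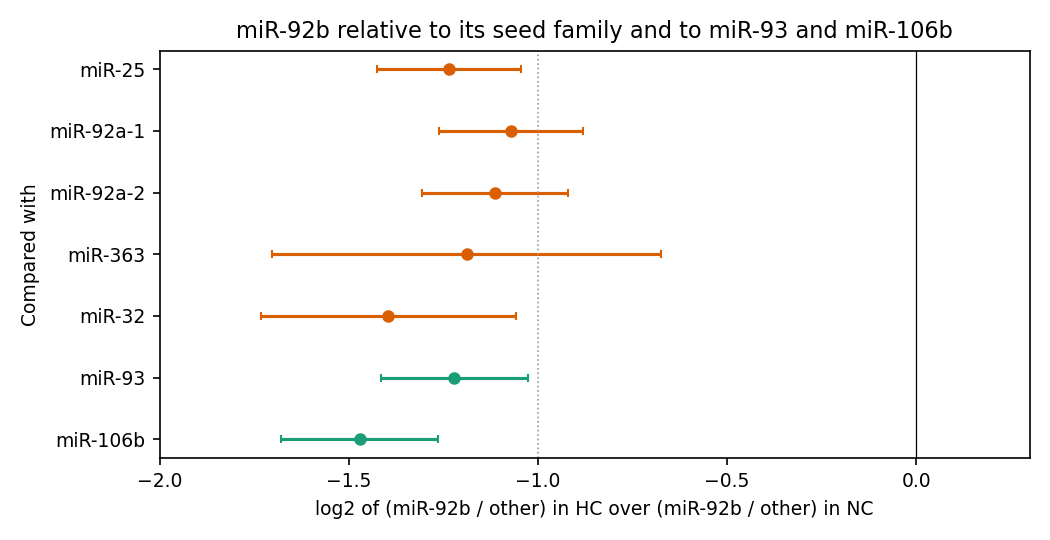
log2 change, HC over NC, in the ratio of miR-92b counts to counts of each named precursor, with Wald 95% counting intervals; orange marks the miR-25/92 seed family and green the miR-17 family. All 7 values lie between -1.47 and -1.07, and the dotted line marks a 2-fold lower ratio in HC.

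Precursors known from other tissues are given beside miR-92b by their interval counts, to be read against the 43.7% of all compared precursors with an interval below 0 and the 39.6% above. Of the 5 epithelial precursors compared 0 were called, where 2.25% of all compared precursors were, so this count is no result about the list. For neurons no call was possible, since 0 precursors reached 10 CPM. Of the 7 epithelial precursors (miR-200a, miR-200b, miR-200c, miR-141, miR-429, miR-203, miR-205), all had counts, 5 of 5 compared had an interval below 0, and the 7 summed to 139.5 CPM in HC and 187.8 in NC. The 5 had log2 folds of -0.88 (miR-429), -0.66 (miR-205), -0.62 (miR-200b), -0.46 (miR-141) and -0.20 (miR-203). Their median was -0.62, where that of all compared precursors was 0.00. Of the 6 neuronal precursors, all had counts and 0 reached 10 CPM, with a sum of 16.9 CPM in HC and 27.4 in NC. These 6 are copies of 2 miRNAs, miR-9 and miR-124, with nearly equal counts per copy. The sum may therefore hold the same reads more than once. The copies of miR-9 had 162 counts each in HC and 347 or 348 in NC, a log2 fold of -0.74 or -0.75. miR-124, the defining neuronal miRNA, had 22 counts per copy in HC and 34 or 35 in NC, with intervals that held 0. No defining marker of these 2 lists was at 0. The part of these tissues in the miR-92b value was not tested, and in bulk tissue fewer cells of a type and less RNA per cell cannot be told apart. Of the 4 leukocyte precursors, 1 had an interval above 0 (miR-223, 0.44) and 1 below (miR-150, -0.75), with sums of 2303 and 2298 CPM. Both erythrocyte precursors, miR-144 and miR-451a, had intervals above 0, with sums of 608.8 CPM in HC and 467.9 in NC. The endothelial miR-126a stood at 11407 CPM (HC) and 11144 CPM (NC).

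**Figure D4:**
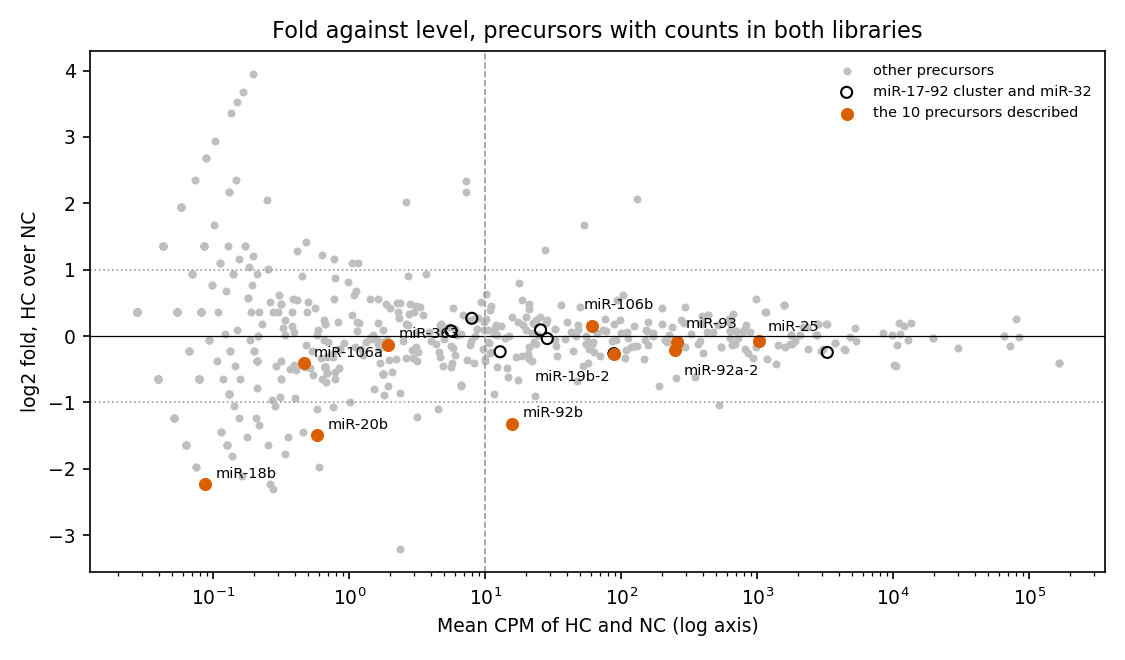
log2 fold (HC over NC) against the mean CPM (log axis) for the 599 precursors with counts in both libraries; filled orange points are the 10 precursors described, open circles the miR-17-92 cluster and miR-32, and grey points all others. miR-92b lies below the 2-fold line (dotted) right of the 10 CPM limit (dashed), whereas miR-18b and miR-20b lie in the low range where folds spread widely.

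Grouped by the seed of the arm shown, the counts of the miR-17 family came mostly from hairpins of the Mcm7 intron. Each count sums both arms of a hairpin, so the family sums here and below may hold reads of arms without the seed. The family summed to 12016 counts (367.7 CPM) in HC and 15827 (378.1 CPM) in NC, a log2 fold of -0.04 (-0.07 to -0.01). Plain totals raise every log2 fold by 0.13, which turns this value positive, so it has no firm direction. miR-93 held 67.6% of the family's counts in HC and 70.3% in NC, and miR-106b held 17.3% and 15.2%. miR-17 and miR-20a held 7.66% and 7.16% in HC, and 7.65% and 6.52% in NC. miR-106a and miR-20b together with miR-93 and miR-106b held 85.2% in HC and 85.8% in NC. The family's order was thus the same in both libraries down to miR-20a.

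The miR-25/92 family came mostly from miR-92a-1 of the miR-17-92 cluster. With miR-92a-2 left out as a copy, it summed to 131347 counts (4019 CPM) in HC and 194517 (4647 CPM) in NC, a log2 fold of -0.21 (-0.22 to -0.20). miR-92a-1 held 74.5% in HC and 76.4% in NC, and miR-25 held 25.1% and 22.9%. miR-92b held 0.223% of the family in HC (0.198 to 0.250%) and 0.481% in NC (0.450 to 0.512%), so its lower count altered the family's total little. miR-25 rather than miR-92b was the main contributor among the precursors described. Its ratio to miR-92a-1 was 33.7% in HC and 30.0% in NC, a log2 change of 0.16 (0.14 to 0.19).

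In the miR-19 family, miR-19b-1 stands for both copies of miR-19b. Its 80.2 CPM in HC and 96.3 in NC, and the 11.8 and 13.9 CPM of miR-19a, gave a family log2 fold of -0.26 (-0.33 to -0.19). The miR-18 family was nearly all miR-18a, with 284 of 285 counts in HC and 302 of 308 in NC, and its summed log2 fold was 0.24 (0.01 to 0.48). The sum lay below 10 CPM in both libraries. The authors' denominators lower every log2 fold by 0.11, which brings equality into this interval.

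Levels of different hairpins were ordered by CPM per 100 bases of hairpin. The mature arms shown are 21 to 23 bases long whatever the hairpin length, so the division is a convention rather than a correction. CPM alone gave the same order in each library. How evenly different sequences entered the libraries was not measured, so the order is one of counts and not of RNA amounts. Per 100 bases miR-25 stood first (1200 in HC, 1269 in NC), followed by miR-93 (282.6 and 302.1) and miR-92a-2 (253.3 and 291.8). miR-19b-2 came next (95.9 and 115.2), then miR-106b (77.8 and 69.9), miR-92b (10.8 and 26.9) and miR-363 (2.45 and 2.68). The order was the same in both libraries down to miR-363. Below it, miR-106a was above miR-20b in HC (0.612 and 0.382) and under it in NC (0.809 and 1.08), and miR-18b was last in both. The places of miR-92a-2 and miR-19b-2 rest on counts that are not theirs alone. Before division by hairpin length, miR-93 and miR-92a-2 had nearly equal levels in NC (265.8 and 265.6 CPM), and with 1 library per group the spread of neither is known.

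The other genes of the pathway were the 6 hairpins of the miR-17-92 cluster and the seed relatives miR-32 and miR-367. Of these 8, 5 were compared and 0 were called, where 2.25% of all compared precursors were called. The interval lay below 0 for 3 (miR-19a, miR-19b-1 and miR-92a-1) against 43.7% of all compared precursors, and held 0 for miR-17 and miR-20a. The median log2 fold was -0.24. For miR-92a-1 the levels were 2994 CPM (HC) and 3551 CPM (NC), a log2 fold of -0.25 (-0.26 to -0.23). miR-17 had 28.2 and 28.9 CPM (-0.04, -0.16 to 0.09) and miR-20a 26.3 and 24.7 CPM (0.09, -0.04 to 0.23). Below 10 CPM, miR-18a had 8.69 and 7.22 CPM, and miR-32, in an intron of Tmem245, had 5.75 and 5.45 CPM. miR-367, of the pluripotency-associated miR-302 cluster, had 0 counts in both libraries.

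**Figure D5:**
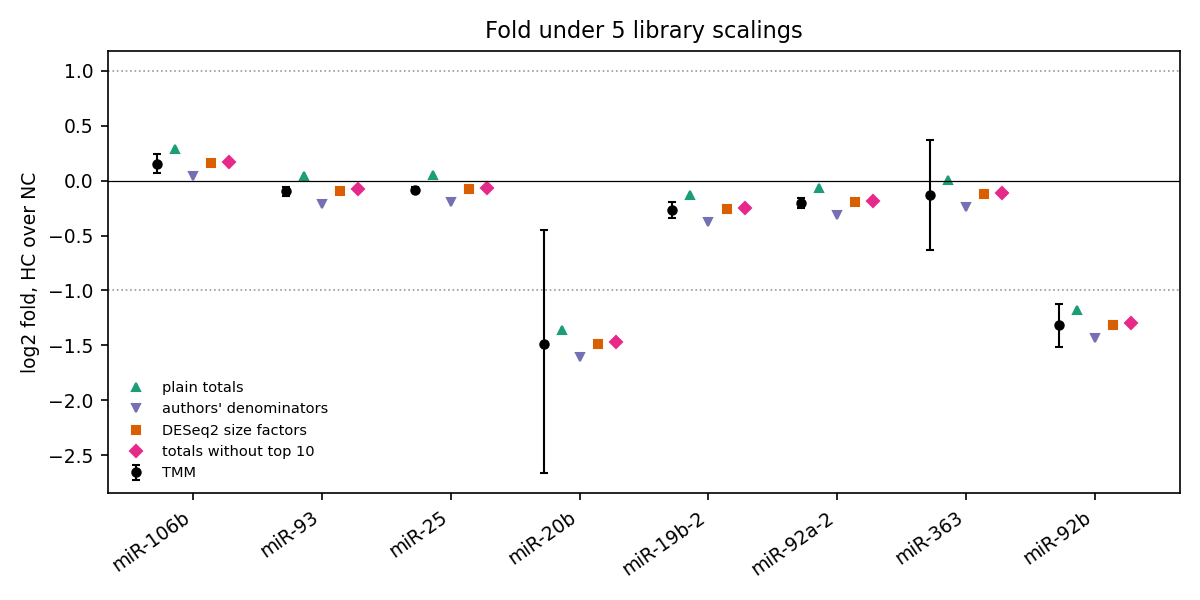
log2 fold (HC over NC) of 8 precursors under 5 library scalings, 1 library per group; bars on the TMM values are exact 95% counting intervals, and miR-106a and miR-18b are left out for their wide intervals. miR-92b stays between -1.43 and -1.18 under all 5, whereas miR-93 and miR-25 lie on both sides of 0.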

How the data were processed

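Small RNA libraries were prepared with the Illumina TruSeq small RNA kit from Trizol and mirVana extracts, per the labels' protocols. HTSeq 0.5.4, TopHat2 2.0.10, CASAVA 1.8.2 and the build mm10 are listed in the submitters' processing notes, without the steps they served; how adapters were trimmed and how reads with several alignments were handled was not given in the sources used here. Whole-number read counts, deposited per precursor, sum both arms. The deposited files also hold a signal, headed RPM, that the authors scaled. It is no plain share of counts, since it sums to 1146026 in HC and 1359554 in NC, and its denominators served as an alternative scaling. The 5 summary rows were left out of library sizes. Among them, the counts outside precursors were 55.9% of their sum with the precursor counts in HC and 44.1% in NC. The other summary rows enter neither part of this share.

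TMM factors came from edgeR 4.0.16 in R 4.3.3 (1.05 in HC, 0.955 in NC), with no edgeR test, and alternative size factors from DESeq2 1.42.0. Fold intervals are exact conditional binomial (Clopper-Pearson) and ratio intervals Wald, from Python 3.11.15 and scipy 1.17.1; a count of 0 was given a limit of 3 counts. Since PCR reads carry no molecular identifiers, they do not count independent molecules, and every interval or limit covers the counting error alone. Calls needed a mean of at least 10 CPM, a fold of at least 2 and an interval without equality. The calling procedure was tested on simulated counts with counting error alone and changes well beyond the limit of 2. That test cannot show how calls hold near the limit or with spread between animals. All 10 members, the miR-17-92 hairpins, miR-32 and miR-367 are named by rule, with the 2 precursors nearest in log2 fold to each cluster sum and to miR-92b. Members and lists were chosen with earlier results of these data known. Of 1187 precursors, 970 matched a RefSeq hairpin by position.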

Additional observations from a re-analysis of the deposited data

Results flagged for a closer look

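Counts outside all miRNA precursors enter no comparison. They were 55.9% of their sum with the precursor counts in HC, above the 44.1% of the control library. Whether they include reads of the precursors described was not tested.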

How the results depend on the processing

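Plain totals shift every log2 fold by 0.13 and the authors' denominators by -0.11, while DESeq2 size factors and totals without the 10 most abundant precursors shift it by at most 0.02. With plain totals the summed log2 fold of miR-106b-25 was 0.061 and that of miR-106a-363 -0.088. Those of miR-25 and miR-93 were 0.053 and 0.038. Intervals then lay below 0 for 3 of the 6 compared members and above 0 for 2. With the authors' denominators the cluster sums were -0.19 and -0.33, and 0 members had an interval above 0. Such a shift moves the intervals of all 222 compared precursors alike. Their shares below and above 0 are given here for TMM only (43.7% and 39.6%). The member counts under other scalings are therefore no result about the members. miR-92b ran from -1.43 to -1.18 over all scalings and was called under each. The median of the compared members was -0.016 with plain totals, -0.14 with DESeq2 size factors and -0.26 with the authors' denominators. Without the 10 most abundant precursors it was -0.13. Over the same precursors, a rescaling shifts the median of all precursors by the same amount, so the distance between the medians does not change. The members' median was -0.13 with the limit lowered to 1 CPM and -0.23 without a filter, under which 2 members were called. Without miR-19b-2 and miR-92a-2 it was -0.089, with 3 intervals below 0, and the miR-106a-363 sum was -0.46. Of the other single values, 8 moved beyond their counting interval and 26 did not. No paired analysis was possible because each group held 1 library, which also left no replicate to leave out. Depth limits miR-106a, miR-18b, miR-20b and miR-363, which had at most 84 counts.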

Other observations

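A further group of miRNAs carries the letters AAGUGC at bases 2 to 7, the core of the miR-17 seed moved by 1 base, and was looked up after the other values were seen. Among the precursors matched to RefSeq, these were miR-290a, miR-291b, miR-294, miR-295, miR-302b and miR-302d, of clusters known from embryonic stem cells, and miR-350. miR-290a had 1 count in HC and 0 in NC, miR-302b had 2 and 0, and the other 4 listed from the stem cell clusters had 0 in both. miR-350, whose count also holds its other arm, had 403 counts (12.3 CPM) in HC and 473 (11.3 CPM) in NC, a log2 fold of 0.13 (-0.07 to 0.32). In these libraries the hairpins of the miR-17 family proper, at 367.7 CPM in HC with both arms counted, thus stood well above those listed with the shifted seed.

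The compared precursors outside the family with the closest log2 folds were miR-21a (-0.08) and miR-484 (-0.08) for the miR-106b-25 sum, and miR-574 (-0.23) and let-7i (-0.23) for the miR-106a-363 sum. For miR-92b they were miR-5103 (-1.03) and miR-3968 (-0.90), 0.28 and 0.42 away. With 2 libraries this likeness rests on 1 value per precursor.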
